A study of Mus musculus with 8 samples.

Results

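The immunity-related GTPases (IRGs) of the mouse are described here in macrophages given disulfiram (DSF), lipopolysaccharide (LPS), both or neither. The 7 genes, Irgm1, Irgm2, Igtp, Iigp1, Tgtp1, Tgtp2 and Ifi47, were chosen by symbol from the 55414 gene identifiers of the count table. Messenger RNA was sequenced from iBMDM cells, mouse bone marrow macrophages that have been immortalized, labelled wild type in every group. The 8 libraries formed 4 groups of 2. DSF+LPS cells received 5 µM DSF for 0.5 h before 1 µg/ml LPS for 4 h. LPS cells received the solvent DMSO and then LPS on the same schedule. DSF cells received DSF and then water, and control cells received DMSO and then water. LPS is a bacterial outer membrane component sensed by the receptor TLR4, DSF is a drug used against alcohol dependence, and the stated question was whether DSF blocks TLR4 activation by LPS. The cells are an immortalized line grown in culture, and the labels do not say whether the 2 libraries of a group came from separate cultures, so that p-values here reflect the spread of these libraries alone, and that spread may be technical.

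IRG proteins are GTPases that interferons induce strongly in mouse cells and that defend against parasites and bacteria living inside vacuoles. They fall into a regulatory class (GMS, with a methionine in the nucleotide-binding loop), to which Irgm1, Irgm2 and Igtp (also called Irgm3) belong, and an effector class (GKS, with the usual lysine), to which Iigp1 (Irga6), Tgtp1 and Tgtp2 (Irgb6) and Ifi47 (Irgd) belong. Regulators sit on the cell's own membranes and hold the effectors in the inactive state, while effectors gather on the membrane of the pathogen's vacuole and help to break it. Interferon-gamma acts mainly on GAS elements in promoters, type I interferons act mainly on interferon-stimulated response elements (ISRE), and TLR4 can start the second route by inducing interferon-beta.

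The promoter sequences show what the members have in common next to their start sites. RefSeq promoter windows of assembly GRCm38.p6, from 250 bases before to 50 bases after the annotated start, matched 6 of the 7 symbols, and Iigp1 was the missing entry. The 100 bases before the start are printed from 5′ to 3′ on the strand of the gene, with capitals marking the letters that match GAS (TTCNNNGAA) or the ISRE core (GAAA, any 2 bases, GAAA).
Irgm1, chr11:48871421-48871520, minus strand: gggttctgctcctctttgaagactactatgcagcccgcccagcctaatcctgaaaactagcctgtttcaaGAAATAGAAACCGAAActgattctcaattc
Irgm2, chr11:58214877-58214976, plus strand: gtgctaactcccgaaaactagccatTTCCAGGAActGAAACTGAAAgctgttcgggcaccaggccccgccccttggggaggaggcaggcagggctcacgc
Igtp, chr11:58199456-58199555, plus strand: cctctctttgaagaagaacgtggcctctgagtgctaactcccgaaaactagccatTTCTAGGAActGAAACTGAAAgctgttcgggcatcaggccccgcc
Tgtp1, chr11:48992247-48992346, minus strand: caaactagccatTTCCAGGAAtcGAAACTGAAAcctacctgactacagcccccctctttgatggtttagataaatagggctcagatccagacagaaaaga
Tgtp2, chr11:49064213-49064312, minus strand: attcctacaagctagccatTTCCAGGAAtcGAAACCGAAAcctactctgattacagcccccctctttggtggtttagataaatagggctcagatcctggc
Ifi47, chr11:49076487-49076586, plus strand: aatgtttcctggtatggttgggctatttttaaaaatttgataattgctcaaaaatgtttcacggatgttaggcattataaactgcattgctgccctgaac
An ISRE core lay in 5 of these 6 windows, against 3.44% of all 32851 promoter windows searched in the same way on both strands. A GAS match lay in 4 of 6, against 8.30% of all windows. In Irgm1 the capitals cover a pair of overlapping ISRE cores and no GAS. In Irgm2, Igtp, Tgtp1 and Tgtp2 a GAS was followed after 2 bases by an ISRE core. This joined form, chosen after the sequences had been seen, occurred in 5 of the 32851 windows, those of these 4 members and of the IRG gene Gm12185. The Ifi47 window held neither match and had TATAAA 25 bases before the start, a match that 13.6% of all windows held. For each member only the first window listed under its symbol was used, so matches at any other start were not counted. That of Ifi47 lay at the outer end of its GENCODE M21 gene model, which begins at base 49076587. The Irgm2 window lay inside its model, which begins at base 58199618. What other starts of Ifi47 hold is therefore not shown. A kappaB form (GGG, any 2 bases, TTTCC) lay in 0 of 6 member windows and in 1.63% of all windows. The windows of Irgm2 and Igtp were 74.4% identical and those of Tgtp1 and Tgtp2 70.1%. A match describes letters in a window and was not tested for binding or for an effect on the gene.

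**Figure D1:**
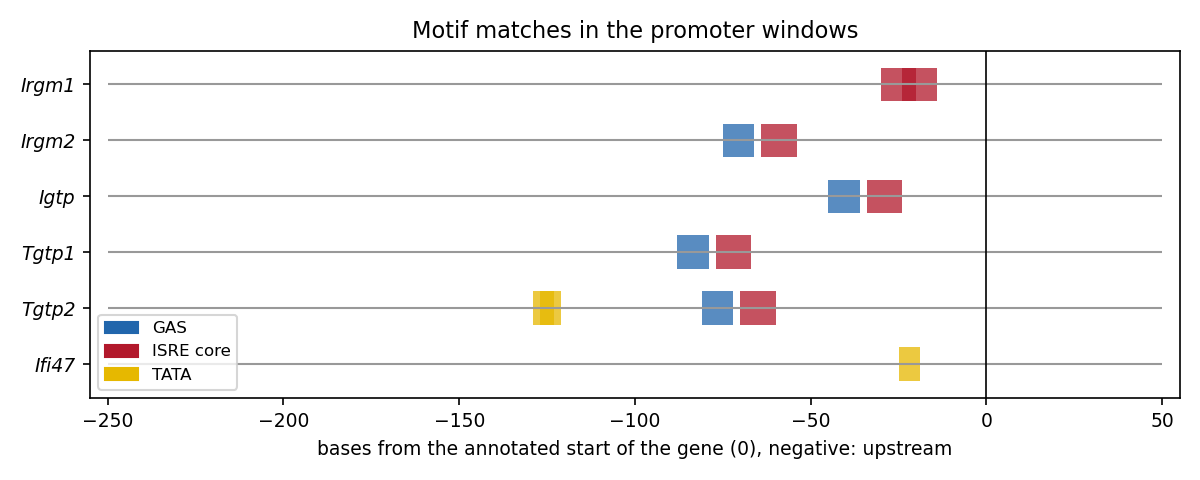
Positions of GAS, ISRE core and TATAAA matches (colours) in the promoter windows of 6 IRG genes, with the x axis in bases from the annotated start. GAS and ISRE core lie side by side in Irgm2, Igtp, Tgtp1 and Tgtp2, with the GAS beginning 75, 45, 88 and 81 bases before the start.

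Library totals ran from 17822041 to 21694922 counts, so depth was close to equal between groups. All 8 macrophage markers were detected in every group and summed to 1781 to 2218 CPM (counts in a library brought to 1000000, with TMM scaling between libraries), while each list of dendritic cell, neutrophil, lymphocyte, fibroblast, or epithelial and endothelial markers summed to at most 4.14 CPM in any library, and Cd3e, a defining T cell marker, was at 0 throughout. The sum hides macrophage markers that moved with the drug. In DSF+LPS against LPS cells 5 of the 8 were called lower and 2 higher, among them the Fc receptor gene Fcgr1 (5.12-fold lower) and the lysosomal marker Cd68 (1.64-fold higher). In DSF against control cells 4 were called lower, Fcgr1 (log2 fold change -1.93), Mrc1 (-1.19), Csf1r (-0.82) and Itgam (-0.30), and 2 higher, Cd68 (0.39) and Lyz2 (0.38). Of all genes tested 31.6% were called lower and 33.7% higher in the first of these comparisons, and 27.1% and 31.0% in the second. The part of these markers in the results was not tested. Library make-up moved with the drug, since 23416 to 25081 genes had a count in the DSF+LPS and DSF libraries, against 19779 to 20324 in the LPS and control libraries. The 10 most abundant genes took 7.23 to 8.39% of counts with the drug, against 4.85 to 5.14% without it. The part of this shift in the results below was not tested.

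The family as a whole was highest in LPS cells and lowest in cells given the drug. The 7 members summed to 22.2 and 22.1 CPM in the DSF+LPS libraries, 390 and 370 CPM in the LPS libraries, 26.9 and 31.8 CPM in the DSF libraries, and 78.1 and 85.0 CPM in the control libraries. The sum in the 2 groups with DSF stayed below that of control whether or not LPS followed. In these bulk samples, fewer cells carrying a transcript and less of it per cell cannot be told apart.

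Irgm1, a regulator that protects the cell's own membranes and that mice need against several intracellular bacteria, was the most abundant member. Its level was 12.7 and 11.5 CPM in the DSF+LPS libraries, 216 and 198 CPM in the LPS libraries, 13.0 and 15.3 CPM in the DSF libraries, and 37.1 and 45.9 CPM in the control libraries. LPS libraries stood above all others, control libraries came next, and the drug-treated groups lay close together below control.

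Igtp, a regulator found on the endoplasmic reticulum and on lipid droplets, followed the same order. It had 3.84 and 3.66 CPM in the DSF+LPS libraries, 72.7 and 74.9 CPM in the LPS libraries, 4.53 and 5.53 CPM in the DSF libraries, and 16.5 and 16.3 CPM in the control libraries. Irgm2, the Golgi-associated regulator known to restrain caspase-11 in mouse macrophages, had 4.44 and 5.08 CPM in the DSF+LPS libraries, 68.3 and 66.9 CPM in the LPS libraries, 5.89 and 7.75 CPM in the DSF libraries, and 13.8 and 15.4 CPM in the control libraries. For both genes the DSF+LPS libraries were the lowest, though the difference from DSF cells was not called for either gene. Their annotated exons overlap by 162 bases on the same strand, so a small share of reads could belong to either gene.

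Ifi47, an effector of the Irgd type, had the most counts of the effector members in every group. It had 0.908 and 1.31 CPM in the DSF+LPS libraries (18 and 24 counts), 24.6 and 24.1 CPM in the LPS libraries, 3.08 and 2.74 CPM in the DSF libraries, and 9.83 and 6.58 CPM in the control libraries. The DSF+LPS libraries were again the lowest. Its exons overlap those of Olfr56 on the same strand and of Gm12188 on the other strand by 217 bases, and whether the counting used strand is not given in the sources used here.

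Iigp1, the best studied effector, which coats parasite vacuoles, was almost absent outside LPS cells. It had 1 and 2 counts in the DSF+LPS libraries, 70 and 47 counts in the LPS libraries, 3 and 2 counts in the DSF libraries, and 4 and 2 counts in the control libraries. These were 0.0505 and 0.109 CPM with both agents, 3.44 and 2.25 CPM with LPS, 0.136 and 0.103 CPM with DSF, and 0.207 and 0.0872 CPM in control. Only the LPS libraries stood apart, and the other 3 groups overlapped.

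Tgtp1 and Tgtp2 are neighbouring copies whose longest protein-coding transcripts are 99.3% identical, with 19 edits over 2823 aligned bases. Of all 50-base windows, 91.4% of those of Tgtp1 and 90.6% of those of Tgtp2 also occur in another gene, so how reads were split between them is uncertain. Tgtp1 had 4 and 4 counts in the DSF+LPS libraries, 32 and 38 counts in the LPS libraries, 5 and 3 counts in the DSF libraries, and 4 and 5 counts in the control libraries. Tgtp2 had 2 and 4 counts in the DSF+LPS libraries, 85 and 43 counts in the LPS libraries, 2 and 3 counts in the DSF libraries, and 9 and 9 counts in the control libraries. Both were high in the LPS libraries alone, and the Tgtp2 counts of the 2 LPS libraries differed by about a factor of 2.

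**Figure D2:**
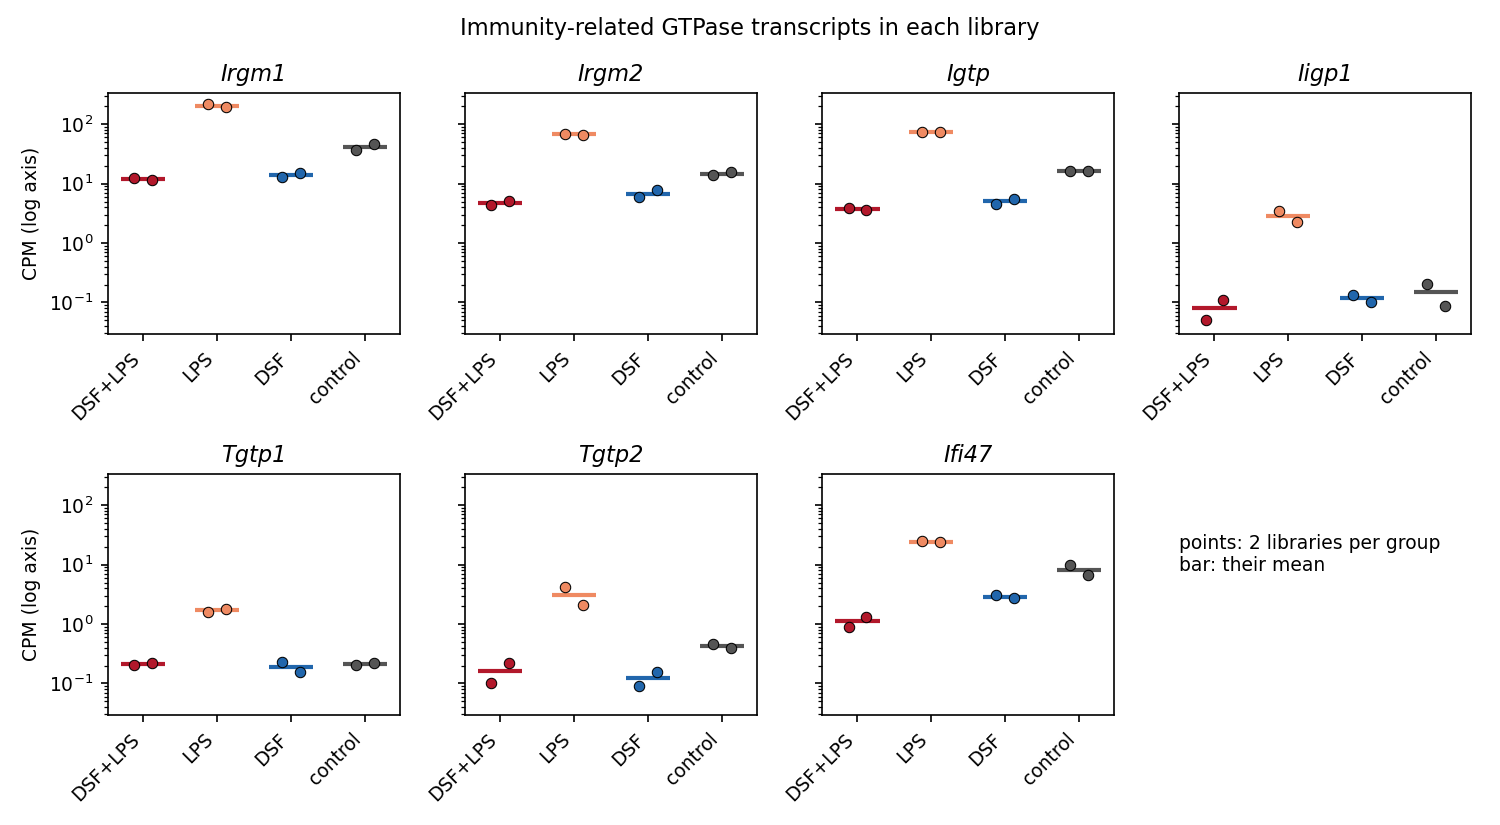
Level of each IRG gene in every library in CPM on a log axis, with a point per library and a bar at the mean of the 2 libraries of a group. LPS libraries are highest for every gene, and for Irgm1, Irgm2, Igtp and Ifi47 both groups with DSF lie below control.

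Per length, the order of the members in LPS cells was Irgm1, Igtp, Irgm2, Ifi47, Tgtp2, Iigp1 and Tgtp1. Divided by the length of the longest protein-coding transcript, mean levels in LPS cells were 91.5 ± 5.69 CPM per kb for Irgm1, 36.5 ± 0.753 for Igtp, 19.2 ± 0.263 for Irgm2 and 13.7 ± 0.181 for Ifi47 (SD, n = 2). Tgtp2 (1.11 ± 0.533) and Iigp1 (0.911 ± 0.270) were neighbours whose libraries overlapped, and Tgtp1 (0.600 ± 0.0615) lay just below both. In control cells the libraries of Ifi47 (4.63 ± 1.30) and Irgm2 (4.14 ± 0.324) overlapped too, as did those of the same genes in DSF cells (1.64 ± 0.136 and 1.93 ± 0.373). Divided by all exonic bases of the gene instead, Irgm1 came to 35.6 and Igtp to 36.5 CPM per kb, so the order of these regulators depends on the transcript model. The 3 regulators and Ifi47 were the 4 highest members in every group. The shares of Irgm1 in the summed CPM per kb of the members were 57.3% with both agents, 56.0% with LPS, 50.3% with DSF and 51.7% in control. The levels and ranks of Tgtp1 and Tgtp2, and with them these shares, are uncertain. Of their 50-base windows 91.4% and 90.6% occur in another gene, and whether such reads were counted is not known.

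Differences between groups were tested with edgeR's quasi-likelihood test on all 16304 genes that passed a filter on low counts, with Benjamini-Hochberg adjustment. Rose, fell and called are used only of genes with an adjusted p under 0.05. All 7 members passed the filter, but Iigp1, Tgtp1 and Tgtp2 reached the minimum in 2 libraries of a group only with LPS alone. A gene kept in that way had to be higher in LPS cells than elsewhere, so the calls of these 3 genes against LPS cells describe them and add no support. The SE given for a log2 fold change is approximate and comes from its F statistic.

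LPS-treated cells given DSF beforehand, the comparison the series was designed around, had a small fraction of the member transcripts of cells given LPS alone. Irgm1 fell to 12.1 ± 0.814 CPM in DSF+LPS cells, against 207 ± 12.9 CPM in LPS cells (SD, n = 2 each), which is 17.1-fold lower. Igtp, at 3.75 ± 0.126 CPM against 73.8 ± 1.52 CPM, was 19.7-fold lower, and Irgm2, at 4.76 ± 0.449 CPM against 67.6 ± 0.929 CPM, was 14.2-fold lower. Ifi47 fell to 1.11 ± 0.284 CPM, against 24.3 ± 0.321 CPM in LPS cells, or 21.9-fold lower. The log2 fold changes by edgeR were -4.09 for Irgm1 (SE 0.12, adjusted p = 1.80e-12), -4.30 for Igtp (SE 0.13, adjusted p = 1.91e-12), -3.83 for Irgm2 (SE 0.14, adjusted p = 1.56e-11) and -4.46 for Ifi47 (SE 0.24, adjusted p = 7.14e-10). Each of these differences was many times the spread between replicates.

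The rarer effectors were lower than in LPS cells too. Iigp1 had 3 counts over both DSF+LPS libraries, against 117 over both LPS libraries, and the ratio of CPM was 0.0278 with a 95% counting interval of 0.00564 to 0.0831 that covers counting error only. Tgtp1 was called at a log2 fold change of -2.98 (SE 0.57, edgeR adjusted p = 0.000323) and Tgtp2 at -4.25 (SE 0.60, adjusted p = 2.19e-05). Summed as 1 feature, which sets aside how reads were split between these copies, the pair changed by -3.69 (edgeR adjusted p = 2.25e-06). Some of their 50-base windows also occur in Gm12185, and the sum does not settle reads shared with that gene. The 4 members measured in every group were all called lower, in a comparison in which 31.6% of all genes tested were called lower, 33.7% higher, and 9.87% lower by at least 2-fold. The balance over all genes turned under library size alone, to 5184 genes called higher and 5465 lower, against 5497 and 5156 under TMM. The median of the 3 regulators was -4.09, against 0.04 over all genes tested. The call of every member held, with the same sign, under RLE scaling, library size alone and DESeq2.

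LPS without the drug raised the members. Irgm1 reached 207 ± 12.9 CPM in LPS cells, against 41.5 ± 6.22 CPM in control cells (SD, n = 2 each), or 4.96-fold higher. Irgm2 rose 4.61-fold and Igtp 4.50-fold, so that the 3 regulators moved by nearly the same factor, with 95% intervals of the log2 fold change of 2.08 to 2.54 for Irgm1, 1.94 to 2.47 for Irgm2 and 1.94 to 2.40 for Igtp. Ifi47 rose least, by 2.98-fold, to 24.3 ± 0.321 CPM, against 8.21 ± 2.30 CPM in control cells. By edgeR the log2 fold changes were 2.31 for Irgm1 (SE 0.11, adjusted p = 3.16e-10), 2.21 for Irgm2 (SE 0.12, adjusted p = 2.83e-09), 2.17 for Igtp (SE 0.11, adjusted p = 6.79e-10) and 1.58 for Ifi47 (SE 0.18, adjusted p = 7.15e-06).

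Among the rare effectors, Iigp1 had the largest fitted LPS response of the family, a log2 fold change of 4.26 (SE 0.59, edgeR adjusted p = 5.41e-05) that rests on 6 control counts. Tgtp1 and Tgtp2 were called at 2.96 (SE 0.55, adjusted p = 0.000803) and 2.85 (SE 0.51, adjusted p = 0.000519), and their sum at 2.90 (adjusted p = 2.83e-05). The 4 members measured in every group, Irgm1, Irgm2, Igtp and Ifi47, were all called higher with LPS. They stand beside 15.2% of all genes tested called higher, 13.8% called lower and 5.35% called higher by at least 2-fold. Scaled by library size alone, all genes tested had a median of -0.13 in this comparison, against 0.02 with TMM, and every member kept its call and sign there.

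**Figure D3:**
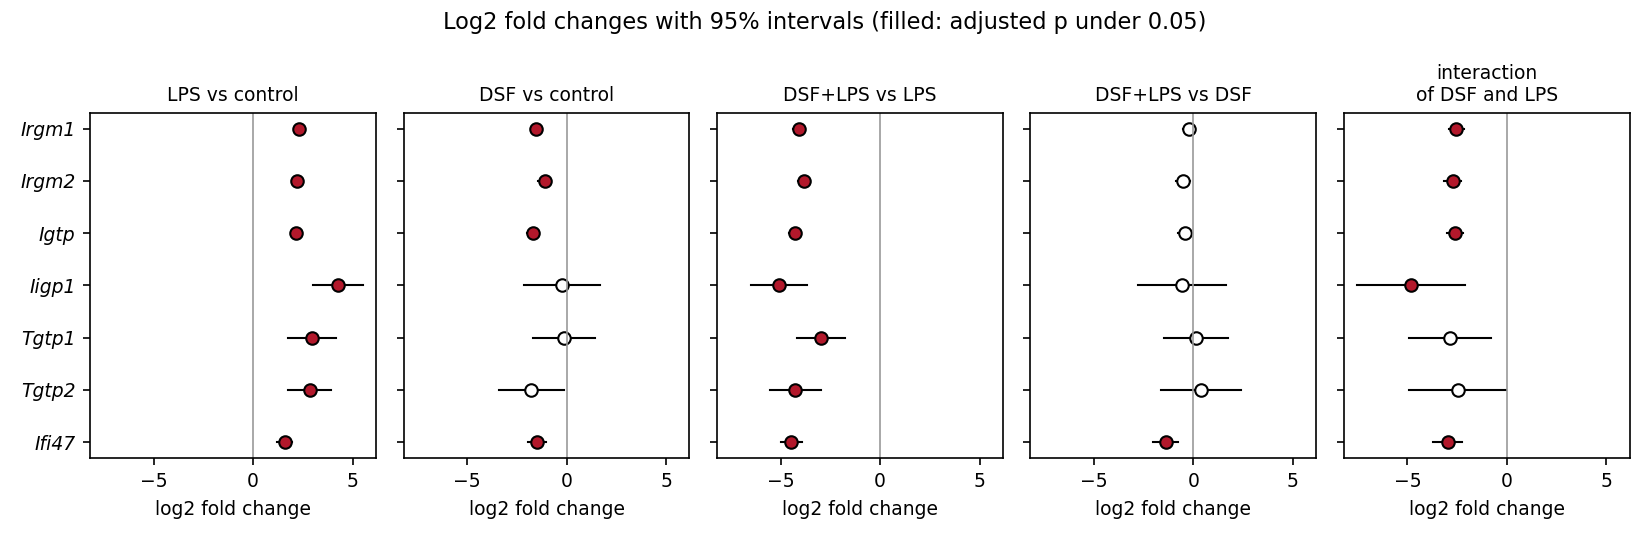
Log2 fold change of each IRG gene in the 5 comparisons on the x axis, with lines for 95% intervals and filled points where the adjusted p was under 0.05. The regulators and Ifi47 have short intervals, while those of Iigp1, Tgtp1 and Tgtp2 are wide and cross 0 for DSF with control and for DSF+LPS with DSF, apart from Tgtp2 with DSF, whose interval of -3.42 to -0.12 ends just under 0 and whose adjusted p was 0.0618.

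DSF without LPS lowered 4 of the 7 members, those with the most counts in control cells. Igtp fell to 5.03 ± 0.706 CPM in DSF cells, against 16.4 ± 0.0742 CPM in control cells (SD, n = 2 each), a ratio of 0.306. Irgm1 fell to 0.340, Ifi47 to 0.358 and Irgm2 to 0.464 of the control level. The log2 fold changes by edgeR were -1.71 for Igtp (SE 0.13, adjusted p = 4.88e-08), -1.56 for Irgm1 (SE 0.12, adjusted p = 5.46e-08), -1.48 for Ifi47 (SE 0.21, adjusted p = 3.51e-05) and -1.11 for Irgm2 (SE 0.14, adjusted p = 1.10e-05). These 4 of 7 members called lower, with none higher, stand beside 27.1% of all genes tested called lower, 31.0% called higher and 5.18% called lower by at least 2-fold, as each of the 4 was. Under library size alone 4423 genes were called higher and 5269 lower, against 5049 and 4418 under TMM. The median of the 3 regulators was -1.56, against 0.05 over all genes tested.

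The other 3 members had few counts in both groups and did not pass. Tgtp2 had a log2 fold change of -1.77 (SE 0.77, edgeR adjusted p = 0.0618), and it passed with library size alone (-1.87, adjusted p = 0.0469) and with no filter on low counts (adjusted p = 0.0412). Iigp1 had -0.23 with a 95% interval of -2.15 to 1.68 and Tgtp1 had -0.14 with an interval of -1.70 to 1.42. Leaving out a library turned the sign of both, Iigp1 to 0.43 without control replicate 1 and Tgtp1 to 0.06 without DSF replicate 2.

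In cells that had received DSF, no member was called higher with LPS. Irgm1 had 12.1 ± 0.814 CPM in DSF+LPS cells and 14.2 ± 1.66 CPM in DSF cells (SD, n = 2 each), with a log2 fold change of -0.22 and a 95% interval of -0.51 to 0.06 (edgeR adjusted p = 0.309). Irgm2 had -0.51 with an interval of -0.87 to -0.16 (adjusted p = 0.0569), and Igtp had -0.42 with an interval of -0.75 to -0.08 (adjusted p = 0.102). The upper ends of these intervals lie far below the rises of 2.31, 2.21 and 2.17 seen without the drug. Ifi47 fell to 1.11 ± 0.284 CPM in DSF+LPS cells, against 2.91 ± 0.242 CPM in DSF cells, 2.63-fold lower (log2 fold change -1.40, SE 0.29, adjusted p = 0.00777), and was the 1 member called, beside 6.53% of all genes tested that were called lower, 5.53% called higher and 0.239% called lower by at least 2-fold. That call was lost when only the DSF+LPS and DSF libraries were fitted (adjusted p = 0.0718) and without DSF replicate 1 (adjusted p = 0.0748), with values from -1.65 to -1.16 over the alternatives. Irgm2 passed with library size alone (-0.62, adjusted p = 0.0186) and with no filter (adjusted p = 0.0482), and Igtp with library size alone (-0.52, adjusted p = 0.0355).

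For the rare effectors this comparison could show little. Iigp1 had a log2 fold change of -0.58 with a 95% interval of -2.77 to 1.61 (edgeR adjusted p = 0.782). Tgtp1 had 0.12 with an interval of -1.47 to 1.71 (adjusted p = 0.943) and Tgtp2 had 0.37 with an interval of -1.64 to 2.37 (adjusted p = 0.855). The sign of Tgtp1 turned without DSF replicate 2 (-0.10) and that of Tgtp2 without DSF+LPS replicate 2 (-0.22).

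The difference between the LPS responses with and without the drug was tested directly as an interaction, the log2 response in DSF-treated cells minus that in cells without DSF. It was -2.54 for Irgm1 (SE 0.17, edgeR adjusted p = 9.13e-08), -2.72 for Irgm2 (SE 0.20, adjusted p = 2.79e-07), -2.59 for Igtp (SE 0.19, adjusted p = 2.20e-07) and -2.97 for Ifi47 (SE 0.34, adjusted p = 1.86e-05). The 95% intervals of the 3 regulators overlapped, from -3.16 to -2.17 in all. Iigp1 had -4.83 (SE 1.26, adjusted p = 0.0143), a value that its passing the filter through LPS cells alone pushes down and a call that was lost without DSF replicate 1 (adjusted p = 0.109) and without LPS replicate 1 (adjusted p = 0.0522). Tgtp1 had -2.84 (SE 0.96, adjusted p = 0.0519) and Tgtp2 -2.48 (SE 1.14, adjusted p = 0.155), neither of which passed, whereas their sum did at -2.67 (adjusted p = 0.0152), though not without DSF replicate 1 or LPS replicate 1 (adjusted p = 0.0694 and 0.0675). The 4 members measured in every group, all called, stand beside 12.2% of all genes tested with a negative interaction, 7.58% with a positive one and 4.01% with a negative one of at least 2-fold.

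**Figure D4:**
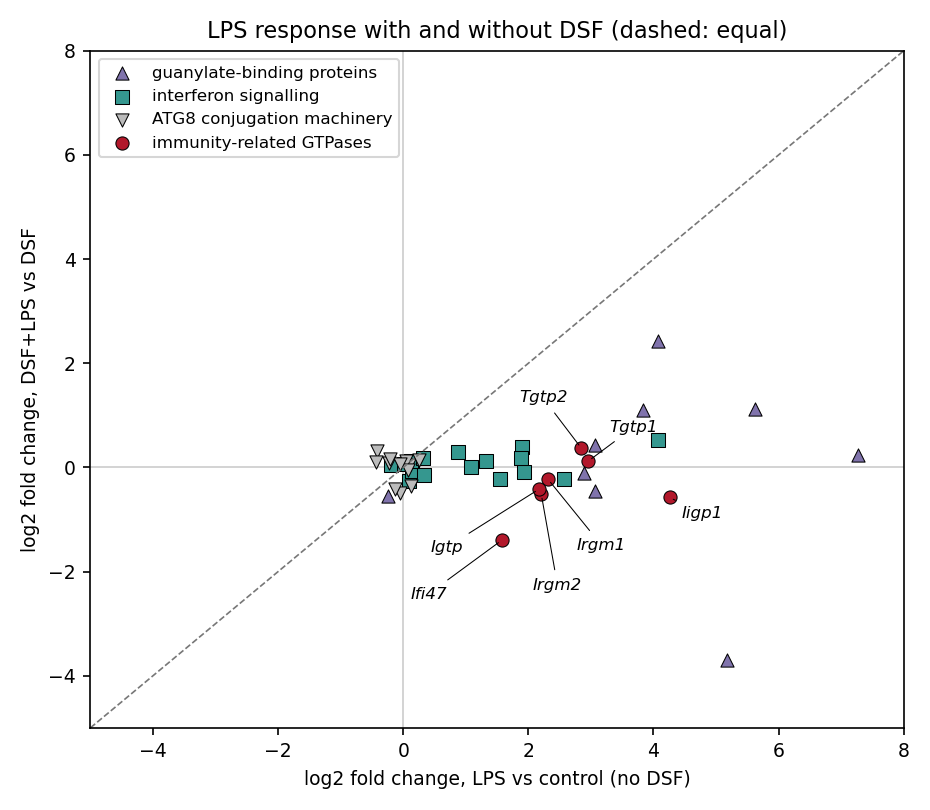
LPS response without DSF (x axis, log2 fold change of LPS over control) and with DSF (y axis, log2 fold change of DSF+LPS over DSF) for the IRG members and the genes of 3 related lists, with equal responses on the dashed line. All 7 members lie below the dashed line at 1.58 to 4.26 on the x axis and -1.40 to 0.37 on the y axis, and the lowest point is Gbp10, fitted at -3.69 from 0 and 3 counts.

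Of 9 further IRG genes 8 were tested, of which Gm4951 passed the filter only through LPS libraries and Irgc1 only through DSF+LPS libraries, so that their calls against those groups were fixed by the filter. Gm12250, which encodes the effector Irgb10, had 0.252 and 0.0546 CPM in the DSF+LPS libraries, 5.60 and 4.26 CPM in the LPS libraries, 0.408 and 0.775 CPM in the DSF libraries, and 0.776 and 0.610 CPM in the control libraries. It was high in LPS cells alone, and was 30.3-fold lower in DSF+LPS than in LPS cells (log2 fold change -4.92, SE 0.53, edgeR adjusted p = 1.41e-06), with a response to LPS alone of 2.83 (SE 0.41, adjusted p = 9.03e-05) and an interaction of -4.68 (SE 0.78, adjusted p = 0.000600). With LPS alone 4 of 8 rose and none fell, at a median of 0.65, beside 15.2% of all genes tested called higher and 13.8% lower. The others that rose were 9930111J21Rik2 (0.56) and, on calls that single libraries or DESeq2 undo, Gm4951 (2.96) and Gm5431 (1.04). In DSF+LPS against LPS cells 5 of 8 fell and 1 rose, at a median of -1.44, beside 31.6% of all genes tested called lower and 33.7% higher. Without Gm4951 and Irgc1 the count was 4 of 6 lower and 0 higher. Of these 4, 9930111J21Rik2 changed by only -0.23, and 9930111J21Rik1 (-0.22) and Irgq (-0.20) were not called. The means of 9930111J21Rik2 were 46.0 CPM in DSF+LPS, 53.9 CPM in LPS, 49.9 CPM in DSF and 36.7 CPM in control cells. In both groups with DSF that was more than the 7 members summed. The gene that rose was Irgc1, a family member known for expression in testis, with 20 and 13 counts in the DSF+LPS libraries, 0 in both LPS libraries, 14 and 6 counts in the DSF libraries and 0 in both control libraries. Against a floor of 3 counts over the group, Irgc1 was at least 11.9-fold higher in DSF+LPS than in LPS cells and at least 6.80-fold higher in DSF than in control cells. In DSF against control cells 9930111J21Rik2 also rose (0.44) and Gm5431 fell (-1.90), where 31.0% of all genes tested rose and 27.1% fell.

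Guanylate-binding proteins (GBPs) are the second family of interferon-induced GTPases that acts on pathogen vacuoles, often with IRGs. Of 9 tested, 8 fell in DSF+LPS against LPS cells and none rose, and Gbp8 did not pass. Of all genes tested 31.6% fell and 33.7% rose there. Gbp4, Gbp6 and Gbp10 passed the filter only through LPS libraries, which fixes their difference from LPS cells, and of the other 6 genes 5 fell, at a median of -4.43. The median log2 fold change of all 9 was -4.76, or -4.11 with Gbp10, at 0 counts in DSF+LPS, set to its bound, against 0.04 over all genes. Gbp5 had 0.601 ± 0.0780 CPM in DSF+LPS cells and 55.4 ± 1.87 CPM in LPS cells (SD, n = 2 each), and Gbp7 was 30.4-fold lower. With LPS alone 8 rose and none fell, at a median of 3.83, or 5 of those 6 at 3.07, led by Gbp5 (153.6-fold) and Gbp2 (49.3-fold). The shares over all genes tested were 15.2% higher and 13.8% lower. With DSF alone 4 fell, Gbp3, Gbp6, Gbp7 and Gbp9, and 1 rose, Gbp8, at a median of -0.78. Of all genes tested 27.1% fell and 31.0% rose with DSF. In DSF+LPS against DSF cells 1 of 9 was called, Gbp2, at 2.41 ± 0.0892 CPM in DSF+LPS cells and 1.12 ± 0.241 CPM in DSF cells, with a rise of 1.11 (adjusted p = 0.00968), a call lost without DSF replicate 1 or with only these groups fitted (adjusted p = 0.131 each). Among all genes tested 5.53% rose and 6.53% fell in that comparison. The interaction was called negative in 7 of 9, or 5 of those 6. Beside them, 12.2% of all genes tested had a negative interaction and 7.58% a positive one. Gbp10 lost the call without any of 4 libraries, LPS replicate 1, LPS replicate 2, DSF replicate 2 or control replicate 1.

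Genes of interferon signalling were set beside the family as the route through which interferons act on it. Of 16 tested, 13 fell and 1 rose in DSF+LPS against LPS cells, at a median log2 fold change of -1.32, beside 31.6% of all genes tested called lower and 33.7% higher. Irf9, whose product binds ISRE, had 16.2 ± 0.969 CPM in DSF+LPS cells, 65.1 ± 5.71 CPM in LPS cells, 16.2 ± 2.73 CPM in DSF cells and 30.9 ± 0.249 CPM in control cells (SD, n = 2 each). Irf1, which encodes a related factor, had 17.8 ± 4.95 CPM in DSF+LPS cells, 56.7 ± 5.69 CPM in LPS cells, 16.4 ± 0.873 CPM in DSF cells and 22.6 ± 0.219 CPM in control cells. The log2 fold changes in DSF+LPS against LPS cells were -2.01 for Irf9 (SE 0.12, edgeR adjusted p = 2.55e-09) and -1.66 for Irf1 (SE 0.15, adjusted p = 1.63e-07), with interactions of -1.08 for Irf9 and -1.20 for Irf1 that both passed.

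With LPS alone 11 of the 16 signalling genes rose and none fell, at a median of 0.97. The shares over all genes tested were 15.2% higher and 13.8% lower. Those that rose included Usp18, which encodes an inhibitor of the type I receptor (5.92-fold), Stat2 (3.83-fold) and the kinase gene Jak2 (3.75-fold). With DSF alone 11 fell and 2 rose, at a median of -0.44, beside 27.1% of all genes tested called lower and 31.0% higher. Those that fell included the receptor genes Ifngr1 (to 0.317 of control), Ifnar1 (to 0.473), Ifnar2 (to 0.747) and Ifngr2 (to 0.750). Irf9 fell too (log2 fold change -0.93, SE 0.12, edgeR adjusted p = 1.33e-05). Socs1, an inhibitor of the kinases, rose 9.53-fold with DSF and 16.9-fold with LPS, on only 4 and 18 counts in the control libraries. In DSF+LPS against DSF cells 0 of 16 passed by edgeR, where 5.53% of all genes tested rose and 6.53% fell. Of the 16, 3 had an unadjusted p under 0.05, 1 passed by DESeq2, and some passed when either DSF+LPS library was left out. The interaction was called negative in 9, beside 12.2% of all genes tested with a negative one and 7.58% with a positive one. The counts of Ifnb1, which encodes interferon-beta, were under the filter, at 2 and 3 in the DSF+LPS libraries, 16 and 8 in the LPS libraries, 1 and 0 in the DSF libraries and 0 in both control libraries. Ifng, which encodes interferon-gamma, had 2 counts in DSF replicate 2 and 0 in the other 7 libraries.

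The machinery that attaches ATG8 proteins to membranes, is needed in mouse cells for IRGs and GBPs to reach pathogen vacuoles. The list of 12 genes, all tested, joins this machinery with the ATG8 genes themselves, Gabarap, Gabarapl1, Gabarapl2, Map1lc3a and Map1lc3b. In DSF+LPS against LPS cells 6 rose and 3 fell, at a median log2 fold change of 0.30. The 3 that fell were machinery genes, Atg3 (-0.23), Atg4b (-0.42) and Atg5 (-0.66), while Atg7 (0.54) and Atg12 (1.54) of the machinery rose. In DSF against control cells 7 rose and 1, Atg4b, fell, at a median of 0.38. Apart from Atg7 and Atg12, the genes that rose in either comparison were ATG8 genes. Over all genes tested 33.7% were called higher and 31.6% lower in the first of these comparisons, and 31.0% and 27.1% in the second, so that the 3 of 12 lower lie near the share over all genes. The ATG8 family gene Gabarapl1 had 228 ± 19.3 CPM in DSF+LPS cells, 41.8 ± 2.74 CPM in LPS cells, 203 ± 9.26 CPM in DSF cells and 48.5 ± 3.38 CPM in control cells (SD, n = 2 each). It rose 5.45-fold in DSF+LPS against LPS cells (edgeR adjusted p = 1.23e-11), and Map1lc3b, which encodes LC3B, rose 3.80-fold (adjusted p = 3.97e-11). LPS alone changed 1 of 12, Map1lc3b, by -0.43 (edgeR adjusted p = 0.000696), beside 13.8% of all genes tested called lower and 15.2% higher. With library size alone 4 of 12 were called lower, where 3774 of the 16304 genes tested were called lower and 1614 higher.

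Members were also compared by the shape of their levels over the 4 group means of log2 CPM, each centred on its own mean. Among members Irgm1 and Igtp were closest, with a root mean square difference of 0.119 log2 units, and Tgtp1 and Ifi47 were farthest apart at 0.994. Of 10080 other genes with symbols and a mean of at least 5 CPM in their highest group, the most similar to Irgm1 and to Igtp was Oasl2, an oligoadenylate synthetase-like antiviral gene, at 0.0529 and 0.0749. Its means were 10.98 CPM in DSF+LPS cells, 201 CPM in LPS cells, 13.2 CPM in DSF cells and 41.2 CPM in control cells. Next came Trim21 for Irgm1 (0.180) and Znfx1 for Igtp (0.177). Irgm2 was nearest to Trim30a (0.112) and Ddx58 (0.131), the second of which encodes the RNA sensor RIG-I, and Ifi47 was nearest to Dtx3l (0.219) and Tlr3 (0.252). Tgtp1, which had close levels in the 3 groups other than LPS, was nearest to Tet2 (0.0408) and Slc28a2 (0.0716), Tgtp2 to Ifih1 (0.135) and Trim21 (0.144), and Iigp1 to Trim30d (0.168) and Apol9a (0.236). These likenesses rest on 4 group means and, for Iigp1, Tgtp1 and Tgtp2, on few counts.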

How the data were processed

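The authors deposited whole-number read counts per gene for 8 libraries, not normalized. Per the labels' protocols, TRIzol was used to extract RNA, and a VAHTS mRNA-seq kit to prepare the libraries. The submitters' processing notes name GRCm39 and DESeq2 with no role attached. What aligned and counted the reads, against which annotation, and how strand and multiply matching reads were treated is not given in the sources used here. Of 55414 identifiers, 52081 matched a symbol of GENCODE M21, and transcript lengths and overlaps came from that annotation of GRCm38. Symbols, members and lists were chosen with earlier results of these data known.

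Counts were tested with edgeR 4.0.16 in R 4.3.3 (TMM, quasi-likelihood test, 1 mean per group, no covariate). filterByExpr (minimum count 10, minimum total 15) kept 16304 genes, and p-values were adjusted by Benjamini-Hochberg over these. The step was also run on simulated data in which few genes changed, up and down alike. The DSF comparisons here changed many more genes, so that run does not bear on their scaling. Replicates differed by more than counting noise in every group, and most in DSF+LPS cells. The chi-square per degree of freedom between replicates was 11.97 in DSF+LPS, 6.45 in DSF, 4.04 in LPS and 3.69 in control cells. Text names the 7 members, up to 4 called genes per list and comparison with the largest changes, Irf1, Irf9, Ifnb1 and Ifng, and the 2 nearest genes in pattern per member. A gene beyond these was named after its values were seen, and 1 gene of the interferon signalling list is not reported here by name. Alternatives were RLE scaling, library size alone, DESeq2 1.42.0, other filters, separate fits, a replicate block, summed Tgtp copies and leaving out each library.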

Additional observations from a re-analysis of the deposited data

Results flagged for a closer look

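For 5 genes the response to LPS differed between cells given DSF and cells without it, by the interaction test of edgeR with Benjamini-Hochberg adjustment over all genes tested. The difference, the log2 response with DSF minus that without, was -2.54 for Irgm1, -2.72 for Irgm2, -2.59 for Igtp, -4.83 for Iigp1 and -2.97 for Ifi47. Of all genes tested 12.2% had a negative interaction, 7.58% a positive one and 4.01% a negative one of at least 2-fold. Iigp1 passed the filter on low counts only through LPS libraries, which pushes its value down, and its call was lost without DSF replicate 1 (adjusted p = 0.109) and without LPS replicate 1 (adjusted p = 0.0522).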

How the results depend on the processing

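Of 506 recomputed values of single members, 491 kept direction and call, 4 lost the call, 7 gained it and 4 changed sign. In DSF+LPS against DSF cells the number of members called was 1 as reported, 3 with library size alone, 2 with no filter on low counts, 0 with only the groups compared and 0 to 1 without 1 library (0 without DSF replicate 1). With the replicate number as a block it was 2, Irgm2 being added at -0.51 (edgeR adjusted p = 0.0458), and no other member's call changed. Whether the numbers pair the libraries is not known from the labels. Deviations of same-numbered libraries correlated between groups at -0.119 (DSF+LPS and DSF) to 0.0531, which with 2 libraries per group cannot decide it. With the pairing of those groups crossed, chosen after seeing the data, 1 member and 2060 genes were called, against 2129 genes in the uncrossed block. The summed Tgtp copies had an interaction of -2.67, and of -2.93 to -2.36 without 1 library, and in DSF+LPS against DSF cells 0.23, and -0.0223 to 0.46 without 1 library. Leaving out 1 library gave -0.76 to 0.43 for Iigp1 and -0.47 to 0.0597 for Tgtp1 with DSF against control, and -0.10 to 0.43 for Tgtp1 and -0.22 to 0.81 for Tgtp2 in DSF+LPS against DSF cells, all uncalled. Tgtp1 gained the interaction call with a filter at 1 CPM (-2.83, adjusted p = 0.0408). Counts of all genes moved most for DSF+LPS against DSF, 1966 as reported, 524 with only the groups compared and 399 without DSF replicate 1, for the interaction, 3217 against 2072 without control replicate 1 and 2003 without LPS replicate 2, and for LPS against control, 4731 against 3146 without control replicate 2. With library size alone 1614 genes rose and 3774 fell with LPS (2485 and 2246 as reported), 464 rose and 2190 fell in DSF+LPS against DSF cells (901 and 1065), and 1487 and 1645 had a positive and a negative interaction (1236 and 1981). Of 996 recomputed values of single genes in the other lists 954 kept direction and call and 42 lost the call. The cause was not tested, and the fit with only the groups compared cannot be made for the interaction. Counts of at most 9 per library limit what can be said of Iigp1, Tgtp1 and Tgtp2 outside LPS cells. Where a group was left with 1 library, it was assumed to vary like the others, although the spread between replicates differed between groups.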
